A study of Mus musculus with 2 samples.

Results

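The genes described here write, maintain and remove the methyl mark on DNA, and the question is where their transcripts carry m6A, a methyl mark on RNA, in the early pregnant mouse uterus. The members are the DNA methyltransferase genes Dnmt1, Dnmt3a and Dnmt3b, the Dnmt1 partner gene Uhrf1, and the Tet genes Tet1, Tet2 and Tet3. All 7 were found in a RefSeq table of 21900 protein-coding genes. A deposited m6A peak counted for a gene when its summit lay in the gene span, which holds exons and introns alike. In this way 24 of 26584 peaks were assigned to the members.

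The peaks come from methylated RNA immunoprecipitation sequencing of polyA RNA, in which RNA fragments are pulled down with an antibody against m6A (IP) and set against a background. Wild-type females at an age of 6 to 8 weeks were mated with fertile males. Their uterus was taken on gestational day 4, counting the day of the vaginal plug as day 1. There was 1 IP sample and 1 input sample, from the same day and genotype, and the peak list was deposited with the IP sample. The labels give the cell type as mixed, and neither the number of animals nor any pooling is given in the sources used here. With 1 sample a group there is no spread between animals and no test between conditions, so every comparison below describes this 1 peak list. All 26584 peak names carry the run name D8NegIP-Posinput, which differs from the labelled day 4. It could not be settled whether the list comes from the day 4 sample, nor whether the labelled input gave the background. The labels are followed below with that limit. In a bulk sample, fewer cells of a type and less RNA per cell cannot be told apart.

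DNA methylation is copied and laid down by different enzymes. DNMT1 restores methylation on the new strand after replication, and UHRF1 recognises half-methylated DNA and brings DNMT1 to it. DNMT3A and DNMT3B methylate sites that were unmethylated before. The TET enzymes oxidise methylcytosine to hydroxymethylcytosine and beyond, which opens the way to its loss. These enzymes act on DNA, whereas the m6A measured here lies on RNA. In the uterus, epithelium and stroma go through hormone-driven rounds of division before the embryo implants.

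Each peak has a fold enrichment, the ratio of IP fragments at the summit (the pileup) to the background there, each with 1 added. The fold enrichment and its p-value together gave the pileup and the background on the scale of the IP library. Over the whole list the fold enrichment had a median of 7.14 (quartiles 5.52 and 10.1), and the pileup a median of 18 fragments (quartiles 11 and 31). The 24 peaks of the members had pileups of 8 to 60 with a median of 18.5, and 1 of them rested on fewer than 10 fragments. Their backgrounds ran from 0.308 to 4.23. Ranges in parentheses after a fold enrichment are exact Poisson intervals at 95%, which cover counting error of the pileup only. Among marker genes, all 8 listed for uterine stroma and epithelium and all 3 for smooth muscle had a peak, beside 44.8% of all protein-coding genes. Of the genes listed for other tissues, 0 of 4 for the preimplantation embryo, 1 of 3 for ovary and oviduct (Ovgp1) and 1 of 4 for immune cells (Adgre1) had one. For each group of 3 or 4 genes, the 95% Wilson interval of the share includes 44.8%. A missing peak cannot tell a lack of reads from a lack of m6A, so these counts do not establish the tissue.

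All 3 Tet genes had peaks, 17 together, whereas only Dnmt1 and Dnmt3a did among the 4 genes of the methylation side, with 7 together. Dnmt3b and Uhrf1 had none. In all, 5 of 7 members had a peak (71.4%, Wilson interval 35.9 to 91.8). The same held for 44.8% of all such genes in the RefSeq table, and for 54.9% of those with a span in the members' range, 20.2 to 113 kb. The interval of the members' share includes both of these values. Most of the genes with any peak had several. Tet1 and Tet3 had 6 peaks each, and Tet2 and Dnmt3a had 5 each. So 4 of 7 members had 5 or more, a count reached by 7.15% of genes in the same range of spans. These 4 have the longest spans of the members, 81.5 to 113 kb, whereas that range begins at 20.2 kb. Whether their number of peaks goes beyond their length was not tested. Dnmt1 had 2 peaks, which is also the median over protein-coding genes with a peak. The median fold enrichment of the 24 peaks, 7.14, was the same as that of the whole list to 3 digits, and 12 of the 24 stood above it.

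**Figure D1:**
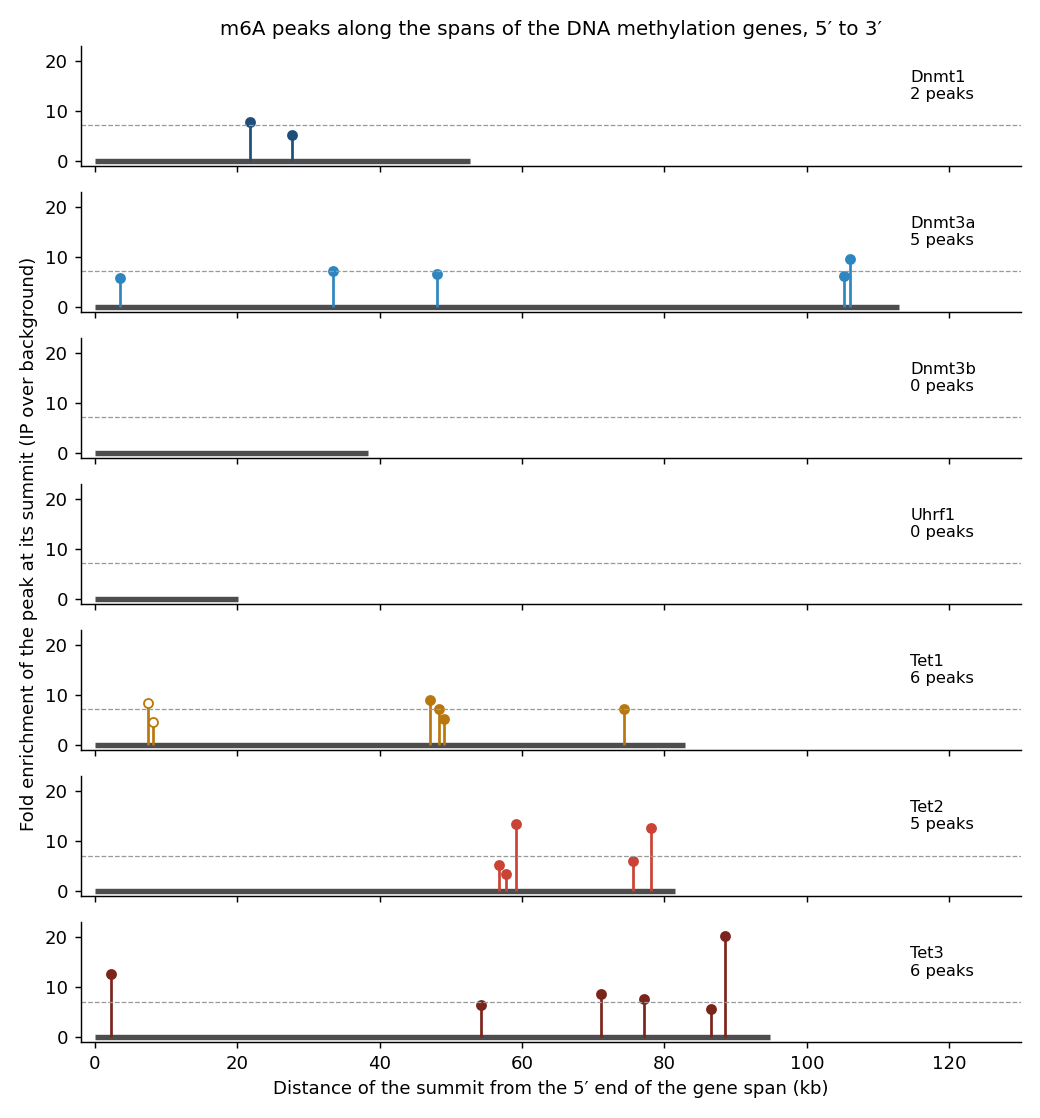
Position and fold enrichment of each m6A peak along the 7 gene spans, drawn from 5′ to 3′ on 1 scale in kb; each stick is a peak summit, the grey bar is the span and the dashed line is the median of all peaks, 7.14. Open circles mark the 2 Tet1 peaks that also lie in the span of a long non-coding RNA gene; Dnmt3b and Uhrf1 have no stick, and the tallest stick, 20.3, lies near the 3′ end of Tet3.

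Dnmt1, the maintenance methyltransferase, lies on the minus strand of chromosome 9 from 20907206 to 20959888. Its 2 peaks were narrow and of ordinary height. The first, going 5′ to 3′, at 20938084 to 20938325, had a fold enrichment of 7.69 (4.84 to 11.7) from 20 fragments over a background of 1.73. The second, at 20932159 to 20932360, had 5.14 (3.12 to 8.06) from 17 fragments over 2.499. Their intervals overlap. Both summits lay in the middle of the span, at 41.3% and 52.5% of its length from the 5′ end, 5723 bp apart from edge to edge. The first was 21743 bp from the 5′ end of the span, and the second 25033 bp from the 3′ end. The strongest Dnmt1 peak ranked 6310 among the 9822 protein-coding genes that had any, each taken at its highest fold enrichment. Its 7.69 lay between the lower quartile and the median of the 2556 genes with exactly 2 peaks, 7.19 and 9.39.

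Uhrf1, whose protein guides DNMT1 to replicated DNA, lies on chromosome 17 from 56303337 to 56323486 and had no peak. The closest summits outside it were 31660 bp away in Ticam1 and 34435 bp away in Kdm4b. Uhrf1 has the shortest span of the members, 20.2 kb. The peak list holds no reads for genes that lack peaks, so a lack of reads and a lack of m6A cannot be told apart. The smallest pileup that made a peak in this list depended on the background. It was 3 fragments at backgrounds under 0.5, 6 fragments at backgrounds of 1 to 2, and 13 fragments at backgrounds of 4 to 8.

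Dnmt3a, a methyltransferase of unmethylated sites, had 5 peaks on chromosome 12 within a span from 3801559 to 3914443, plus strand. The highest was the one nearest the 3′ end, at 3907556 to 3907803, with 9.58 (6.43 to 13.8) from 27 fragments over a background of 1.92. A second peak 745 bp upstream of it, at 3906611 to 3906810, had 6.24 (3.38 to 10.8) from 11 fragments. This pair lay 6776 and 7740 bp from the 3′ end. The other 3 peaks were spread over the 5′ part of the gene and rested on few fragments. The first, at 3805006 to 3805280, had 5.71 (2.82 to 10.6) from 8 fragments. The next, at 3835046 to 3835249, had 7.19 (3.79 to 12.7) from 10, and the one at 3849452 to 3849669 had 6.50 (3.68 to 10.8) from 13. The intervals of all 5 overlap, and the order among them was not tested. The first peak lay 1860 bp upstream of the nearest of 3 start sites in the RefSeq table of promoters, yet inside the gene span, which begins earlier. The spans of 2 long non-coding RNA genes that overlap Dnmt3a, Dnmt3aos and Gm31623, held none of these summits.

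Dnmt3b, the close relative of Dnmt3a, had no peak in its span on chromosome 2, from 153649411 to 153687730. The nearest summits were 79486 bp away in Mapre1 and 213059 bp away in Nol4l, farther than for Uhrf1. Thus the 2 enzymes with the same kind of activity differed in this list, 5 peaks against 0. Their spans differ too, at 113 kb and 38.3 kb, and the difference was not tested.

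The Tet peaks covered a wider range of heights than the Dnmt peaks. Fold enrichments ran from 3.44 to 20.3 over the 17 Tet peaks, with a median of 7.14, and from 5.14 to 9.58 over the 7 Dnmt peaks, with a median of 6.50. A range can widen with the number of peaks. The widths differed as well. All Dnmt peaks were 200 to 275 bp wide, with a median of 218 bp. The Tet peaks had a median of 469 bp, but some were as narrow as the Dnmt peaks, down to 200 bp. Over the whole list the median was 322 bp. Of the 24 peaks, 4 were wider than 1500 bp (16.7%, against 3.66% of the whole list), and those were 2 peaks each of Tet2 and Tet3. The width used here was chosen after the values were seen.

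**Figure D2:**
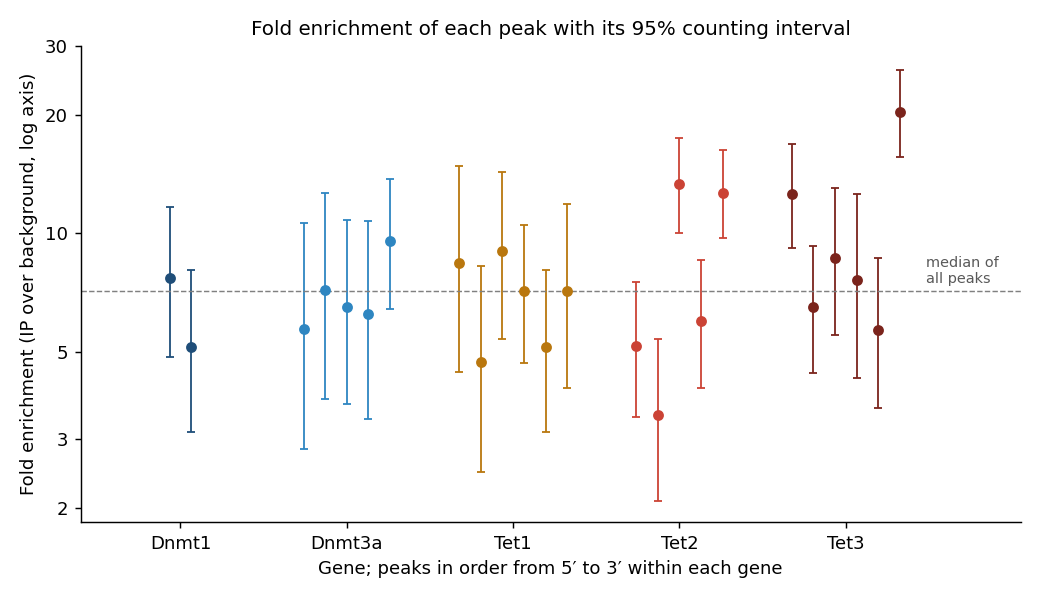
Fold enrichment (log axis) of the 24 peaks of the 5 genes that had any, with bars for the 95% Poisson interval of the IP pileup; peaks run from 5′ to 3′ within each gene and the dashed line is the median of all 26584 peaks. The last Tet3 peak, 20.3 (15.6 to 26.1), has the only interval that begins above 15, and the Dnmt and Tet1 intervals all overlap the dashed line.

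Tet1, on the minus strand of chromosome 10 from 62804570 to 62887469, had 6 peaks in 3 places, none of which stood out in height. Near the 5′ end, 2 peaks lay 350 bp apart, at 62879844 to 62880150 with 8.41 (4.43 to 14.8) and at 62879294 to 62879493 with 4.69 (2.47 to 8.27). Each rested on 10 fragments, and both also lie in the span of the long non-coding RNA gene Gm51805, so the gene they belong to cannot be told apart. In the middle of the gene, 3 peaks filled a stretch of 2208 bp. Going 5′ to 3′ they were 62840005 to 62840548 with 9.02 (5.38 to 14.3), 62838950 to 62839665 with 7.14 (4.68 to 10.5), and 62838341 to 62838577 with 5.14 (3.12 to 8.06). They rested on 16, 24 and 17 fragments. The last peak, at 62812769 to 62813237, had 7.14 (4.04 to 11.9) from 13 fragments and lay 8520 bp from the 3′ end. All 6 intervals overlap. Without the peaks shared with Gm51805, Tet1 kept 4 peaks and its highest value.

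Tet2, on the minus strand of chromosome 3 from 133463677 to 133545136, had 2 strong peaks and 3 weak ones, all past 69.7% of the span from its 5′ end. The strongest, at 133485514 to 133487156, had 13.4 (10.04 to 17.5) from 51 fragments over a background of 2.88. The one closest to the 3′ end, at 133466300 to 133468325, had 12.7 (9.73 to 16.3) from 60 fragments over 3.81, and at 2026 bp it was the widest of the 24. Its summit was 3411 bp from the 3′ end, the shortest such distance among the members. Both strong peaks stood above their weaker neighbours without overlap of the intervals. Upstream of the first were 133487759 to 133488746 with 5.16 (3.41 to 7.53) and 133487326 to 133487569 with 3.44 (2.09 to 5.40), the lowest value of any member. The peak at 133469408 to 133469733, with 5.99 (4.05 to 8.56), lay 1082 bp from the last one. The 3 upstream peaks were separated by gaps of 189 and 169 bp and together spanned 3233 bp. Tet2 also had the highest median background of the members, 3.84 against 0.923 for Dnmt3a.

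Tet3, on the minus strand of chromosome 6 from 83362373 to 83457208, had the highest peak of the members. It lay at 83368080 to 83369922, 6294 bp from the 3′ end, with 20.3 (15.6 to 26.1) from 60 fragments over a background of 1.999. This put it at rank 620 of the 26584 peaks, and Tet3 at rank 530 of those 9822 genes. A smaller peak 535 bp upstream of it, at 83370458 to 83370796, had 5.69 (3.58 to 8.64). The second highest peak of the gene was at the other end, at 83454768 to 83455537, with 12.6 (9.18 to 16.8) from 43 fragments. That summit was 2.39% of the way along the span and 13263 bp upstream of the single Tet3 start site listed in the table of promoters. Between the ends lay 3 peaks. The broad one at 83402895 to 83404700 had 6.50 (4.40 to 9.30), and 2 narrow ones, at 83386059 to 83386265 and 83379917 to 83380129, had 8.67 (5.52 to 13.04) and 7.58 (4.29 to 12.6). The span of the long non-coding RNA gene B230319C09Rik inside Tet3 held no summit.

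Ordered by their strongest peak, the members were Tet3 at 20.3, Tet2 at 13.4, Dnmt3a at 9.58, Tet1 at 9.02 and Dnmt1 at 7.69. Each neighbouring pair in this order has overlapping intervals. The interval of Tet3, from 15.6, lies above those of Dnmt3a, Tet1 and Dnmt1, which end at 13.8, 14.3 and 11.7. Their median was 9.58, beside 9.36 over all protein-coding genes with a peak and 9.51 over those with a span in the members' range. A highest value can rise with the number of peaks. Among the 672 protein-coding genes with 5 or 6 peaks the median of the highest fold enrichment was 13.2, with quartiles of 10.6 and 17.3. Tet3 stood above that upper quartile and Tet2 near the median, while Dnmt3a and Tet1 stood below the lower quartile. The order depends on the 1 that is added to pileup and background. With nothing added, Tet1 came first at 32.5, from its 10-fragment peak shared with Gm51805. Tet3 followed at 30.01, then Dnmt3a at 18.8, Tet2 at 17.7 and Dnmt1 at 11.6. The value of Dnmt3a then also came from a peak of 10 fragments, its second from the 5′ end.

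**Figure D3:**
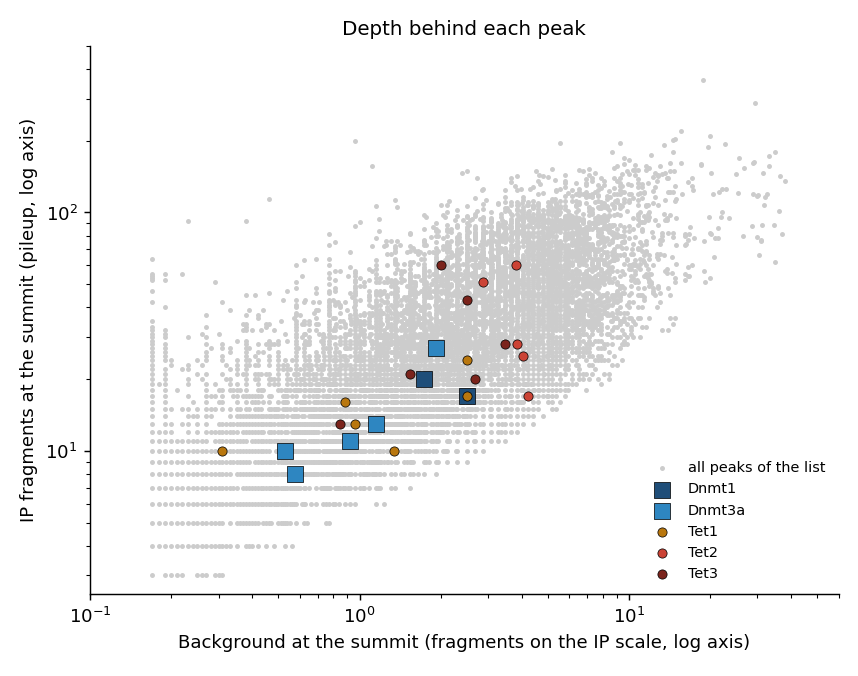
IP fragments at the summit against the background there, both on log axes, for all peaks (grey) and for the peaks of Dnmt1 and Dnmt3a (squares) and the Tet genes (circles). The second Dnmt1 peak and the fifth Tet1 peak coincide at 17 fragments over a background of 2.499, and the 60-fragment peaks of Tet2 and Tet3 are the deepest of the members.

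No summit lay right at an annotated gene end. None of the 24 summits lay within 2 kb of a 3′ end, where 23.9% of 18828 assignments to protein-coding genes with a known strand did. Within 5 kb there was 1, in Tet2, against 43.3%. On the scale of the gene length, 6 of 24 were in the last 10% of the span, which held 29.0% of those assignments, and 4 of 24 in the first 10%, which held 12.1%. Likewise none lay within 1 kb of a listed start site, against 12.4%. The nearest was the Dnmt3a peak at 1860 bp. The shares at fixed distances pool genes of all lengths. Over all protein-coding genes the median span was 17.1 kb, while the members with a peak span 52.7 to 113 kb. A fixed distance is a larger part of a short gene, and no such share was computed for genes of like span. The spans used here run to the outermost annotated transcript end, and exons, coding regions and UTRs were not used, so these distances do not place a summit in a part of the transcript. Some peaks had close neighbours. Of the 24, 14 (58.3%) had another peak of the same gene less than 2 kb away, in 6 groups in Dnmt3a, Tet1, Tet2 and Tet3, against 51.9% of peaks in genes with several. The gap was chosen after the values were seen, and the direction of this difference turns with it. Within 5 kb the count was still 14, below the 66.8% of peaks in genes with several. These shares cover all genes with 2 or more peaks, while Dnmt3a, Tet1, Tet2 and Tet3 had 5 or 6 each. No share was computed for genes with a like number of peaks.

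Genes of the methyl-CpG binding domain (MBD) family, the Zbtb genes whose proteins bind methylated DNA, and Uhrf2 were listed together. Members of the MBD family differ in binding, and not all of their proteins select methylated DNA. Of 10 genes listed, 9 had a peak (Wilson interval of the share 59.6 to 98.2%), and the median of their highest fold enrichments was 13.1, beside 9.58 for the members. Zbtb4, the gene of a zinc finger protein that binds methylated DNA, led with 24.7 (20.05 to 30.2). Mbd4, the gene of a DNA glycosylase, followed with 17.7 (13.1 to 23.5) and Mbd5 with 16.7 (11.9 to 22.9). Mbd6 had none. Uhrf2, the relative of Uhrf1, had 3 peaks, up to 8.06 (5.13 to 12.1), where Uhrf1 had none. The shares of this list and of the members have overlapping intervals. Its interval lies above the 44.8% of all protein-coding genes with a peak, but the list was chosen with earlier results of these data known.

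Genes that support DNA methylation had peaks in 5 of 12 cases (41.7%, 19.3 to 68.0), near the 44.8% of all protein-coding genes. The highest were in Zfp445, a guardian of imprinted methylation, with 10.8 (7.83 to 14.6), Cdca7l with 7.88 (4.90 to 12.1), and the deubiquitinase gene Usp7 with 7.67 (4.04 to 13.5). The DNMT3 cofactor gene Dnmt3l had none. The remodelling genes Hells and Cdca7, the silencing cofactor gene Trim28, and Dmap1, Mat2b and Ahcy had none either. Partners and later steps of demethylation had peaks in 9 of 13 cases (69.2%, 42.4 to 87.3), an interval that includes 44.8%. With only peaks of at least 10 fragments, it was 7 of 13. The stress-response gene Gadd45a had 13.1 (10.9 to 15.6), its relative Gadd45g 12.2 (8.69 to 16.7), and the CXXC zinc finger gene Cxxc5 11.8 (8.43 to 16.1). Tdg, whose glycosylase removes the oxidised bases that TET enzymes make, had no peak, and neither had Idh1, Idh2 and Xrcc1. Ogt, which encodes a sugar transferase that binds TET proteins, had 10.3 (8.41 to 12.4).

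Dnmt1 and Uhrf1 work at the replication fork, and replication and proliferation genes were set beside them. Of 14 such genes, 8 had a peak (57.1%, 32.6 to 78.6), with a median highest value of 8.53. The interval of this share includes the 44.8% of all protein-coding genes. With only peaks of at least 10 fragments, 7 of the 14 had one. The flap endonuclease gene Fen1 reached 19.8 (14.9 to 25.8), the proliferation marker gene Mki67 had 12.1 (8.93 to 16.1) as the highest of 7 peaks, and the helicase subunit gene Mcm7 had 8.91 (5.61 to 13.5). Top2a, Mcm4, Mcm5, Rrm2, Ccne1 and Ccna2 had no peak, as Uhrf1. All 4 lists have intervals that overlap that of the members.

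**Figure D4:**
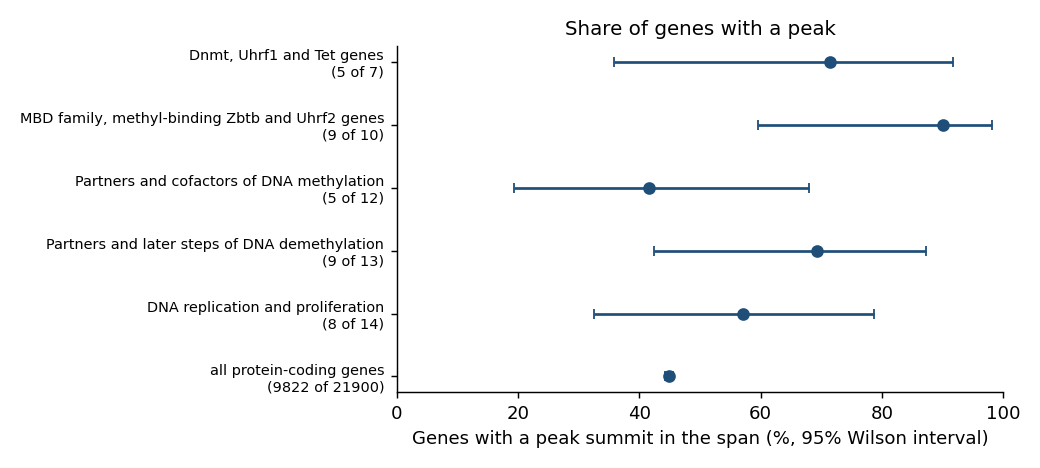
Share of genes with at least 1 peak summit in the span, in percent with 95% Wilson intervals, for the Dnmt, Uhrf1 and Tet genes, the 4 related lists and all protein-coding genes. The list of MBD family, Zbtb and Uhrf2 genes has the highest share, 9 of 10, and the interval of the 7 members, 35.9 to 91.8, overlaps that of each list.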

How the data were processed

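Per the submitters' processing notes, MACS3 3.0.0a7 and HISAT2 2.2.1 were used on the build mm10; their options were not given in the sources. The authors deposited 1 peak list with the summit offset and, per peak, a fold enrichment (a ratio), −log10 p-value, −log10 q-value and score (10 times −log10 q, decimals dropped). The lowest deposited −log10 q was 1.31.

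Pileup and background were solved from the fold and the Poisson p-value. A whole number fitted the pileup in 99.9% of peaks, with a tolerance of 0.05 of 1 fragment, and for all 24 of the members. The solver was tested on simulated data. Spans and start sites came from RefSeq tables of GRCm38.p6, the assembly of mm10, with strand for 17492 of 21900 protein-coding genes. Coordinates count from 1. Peaks carry no strand. No genome of this build was used, so peak sequences, motifs and exons were not analysed here. Wilson intervals treat genes as independent draws. Fragments amplified by PCR are not independent molecules.

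The members and lists were chosen with earlier results of these data known. Named genes are the members and, per list, the 3 highest and those without a peak; Uhrf2 and Ogt were added after their values were seen. In the list of MBD family genes, 1 gene is not reported here and was left out of its counts. Alternatives were stricter peaks, other overlap rules, other added constants and other windows. Analyses ran in Python 3.11.15 with scipy 1.17.1, numpy 2.4.6 and pandas 2.3.3, and plots in matplotlib 3.10.9.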

Additional observations from a re-analysis of the deposited data

How the results depend on the processing

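Of 70 alternatives, 60 left the result within its counting interval or, for counts, within 1.5 times. Some of the 60 could not move. The strongest peak of each member lies in no other gene and has a −log10 q above 5. Leaving out shared peaks, or those with a −log10 q below 5, therefore could not change its value. The members with a peak were 5 under each peak threshold and overlap rule, and their peaks 22 to 24. What moved was mainly the size of fold enrichments when less was added to pileup and background, because the backgrounds are small. With 0 added, the highest value became 18.8 for Dnmt3a, 32.5 for Tet1, 17.7 for Tet2 and 30.01 for Tet3, with a median of 18.8 over the members. With 0.1 added it became 16.02 for Dnmt3a, 24.8 for Tet1 and 28.6 for Tet3, with a median of 17.1. With each gene taken at the median over its peaks, the median over the members was 6.50 in place of 9.58. This was counted among the 60, although a median has no counting interval of its own. Of the peaks near a 3′ end, 1 lay within 5 kb and 0 within 2 kb. The gap that defines neighbouring peaks and its alternatives were chosen after seeing the data. Under 1 kb, 12 of 24 peaks had a neighbour, against 39.4% in genes with several peaks, and under 5 kb 14 of 24 (58.3%), against 66.8%, so that the difference seen at 2 kb turned. The shares were not matched for the number of peaks in a gene. No paired analysis was possible because each group has 1 sample. The interval of the peak with 8 fragments, in Dnmt3a, ran from 2.82 to 10.6 around 5.71. The single IP library says nothing of the spread between animals.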

Other observations

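The second Dnmt1 peak and the fifth Tet1 peak, on different chromosomes, have the same pileup of 17 and the same background of 2.499. In the whole list 25 peaks share this pair of values. The same background, within 0.001, stood under 4 of the 24 member peaks and under 635 peaks in all (2.39%), and the most frequent background, 0.175, under 1333. Backgrounds of the member peaks included 0.961, 1.153, 1.346, 1.538, 1.730 and 1.922, which rise in even steps, and 2.499 lies on the same steps. Those of 0.308, 0.531, 0.846, 0.884, 0.923, 1.999 and 3.806 lie off them. With whole pileups and recurring backgrounds, peaks at unrelated places can share both values. What sets the levels of the background was not tested.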
